A study of Mus musculus with 11 samples.

Results

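The alpha and beta crystallins examined here comprised 9 of the 38393 genes listed for each library: the alpha crystallins Cryaa and Cryab, the beta crystallins Cryba1, Cryba2, Cryba4, Crybb1, Crybb2 and Crybb3, and Crygs, a monomeric member of the beta and gamma family that is grouped with them here. They were chosen by name because several of them were known to be very high in WT replicate 4, so that the height of these genes in single libraries is described and not tested. RNA was measured in the whole eye of C57BL/6 mice at 1 to 2 months of age, with retina, RPE, choroid, sclera and ciliary body included and with lens and cornea taken away. The 5 WT libraries came from wild-type animals of both sexes, and the 6 KO libraries from male miR-211-/- animals, in which the precursor of the microRNA miR-211 is deleted throughout the body, so that no cell type is singled out by the allele. The labels name the libraries of each genotype replicates and do not say which animal or preparation stands behind each, so that p-values measure the spread between these libraries.

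Crystallins are the most abundant soluble proteins of the lens, where their dense and ordered packing gives transparency and refractive power. The alpha crystallins are small heat shock proteins that hold partly unfolded proteins in solution, whereas beta and gamma crystallins share a structural fold and are made in quantity during the growth of lens fibre cells. Cryab is made in many tissues besides the lens, among them muscle and glia, and low levels of several other crystallins are known from the retina.

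Levels are given as CPM, the counts scaled to a common library total with TMM factors, which compare 1 gene across libraries, and as the deposited FPKM, which are scaled by gene length and serve to compare genes. Library totals ranged from 20282241 to 36317673 read pairs assigned to genes. All 9 genes reached 1 CPM in at least 5 libraries and were tested, but Cryba2 was at or above 1 CPM in only 4 of the 8 libraries that remain once the 3 described next are set aside, and passed the filter through those 3.

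In these genes 3 libraries stood apart, 1 WT and 2 KO. The 9 crystallins took 8.62% of all counts in WT replicate 4 (95% Wilson interval 8.61 to 8.63%), 2.88% in KO replicate 3 (2.88 to 2.89%) and 0.417% in KO replicate 6 (0.415 to 0.420%). In the other 8 libraries the share was 0.0114% to 0.0279%, with a median of 0.0164%. The intervals cover counting error only. By summed FPKM the share was 17.0% in WT replicate 4, 6.57% in KO replicate 3 and 1.01% in KO replicate 6, and 0.0257% to 0.0509% in the other 8. The levels in these 3 libraries and those in the other 8 are therefore described separately.

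Promoter sequences were found in a RefSeq table (build GRCm38.p6) for 8 of the 9 genes. Cryab has no entry in it. The following 4 are shown because their genes span the alpha crystallin highest in the 3 libraries and 3 beta crystallins that share chromosome 5, and because they include the single promoter of the 8 without the motif searched. Each line gives the 200 bases before the annotated start, 5′ to 3′, and capitals mark TGCTGA, a core recognition sequence of Maf factors, which activate crystallin genes in the lens. The windows are chr17:31677731-31677930 (plus strand) for Cryaa, chr5:112252519-112252718 (minus strand) for Cryba4, chr5:112255620-112255819 (plus strand) for Crybb1 and chr5:113070118-113070317 (minus strand) for Crybb2.
Cryaa: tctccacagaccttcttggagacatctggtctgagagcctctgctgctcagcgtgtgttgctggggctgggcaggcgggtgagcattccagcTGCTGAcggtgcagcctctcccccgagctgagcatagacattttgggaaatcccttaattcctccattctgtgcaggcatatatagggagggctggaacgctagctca
Cryba4: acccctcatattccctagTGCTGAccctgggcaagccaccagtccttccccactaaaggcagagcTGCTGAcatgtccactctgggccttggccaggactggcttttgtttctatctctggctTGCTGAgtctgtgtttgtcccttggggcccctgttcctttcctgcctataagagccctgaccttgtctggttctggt
Crybb1: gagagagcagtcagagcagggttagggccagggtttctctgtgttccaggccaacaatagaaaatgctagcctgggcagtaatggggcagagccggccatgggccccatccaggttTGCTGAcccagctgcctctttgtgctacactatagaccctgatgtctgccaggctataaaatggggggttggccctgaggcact
Crybb2: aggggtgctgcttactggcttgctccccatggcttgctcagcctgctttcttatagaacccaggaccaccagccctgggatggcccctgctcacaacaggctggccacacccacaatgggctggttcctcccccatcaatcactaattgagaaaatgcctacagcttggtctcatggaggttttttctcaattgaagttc

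Both strands were searched over the 300 bases from 250 before to 50 after the start. TGCTGA or its reverse complement TCAGCA lay in 7 of the 8 promoters, against 19.5% of 32851 promoters of the same length. It began 108 bases before the start in Cryaa and 84 bases before in Crybb1. Cryba4 held it at 3 places, 182, 135 and 77 bases before the start, and Crybb2 held none. Of the 7 gamma crystallin promoters 3 held it. GAANNTTC, the core of a heat-shock element, lay in 0 of the 8 promoters, against 7.86% of all. A match is a description of the letters and does not show binding. Among the 9 genes, 4 lie on chromosome 5 of GRCm38 in adjacent pairs: 3296 bases separate Cryba4 from the divergently transcribed Crybb1, and 5721 bases separate Crybb2 from Crybb3.

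Cryaa, the alpha crystallin largely restricted to the lens, was at 10.7, 6.99, 11.5, 38276 and 13.1 CPM in WT replicates 1 to 5. In KO replicates 1 to 6 it was at 9.87, 1.73, 11753, 30.7, 18.7 and 1891 CPM. WT replicate 4 was thus 1249 times the highest of the other 8 libraries, KO replicate 3 was 383 times and KO replicate 6 was 61.7 times. Outside the 3 libraries, KO replicate 2 was lowest and KO replicate 4 highest. Crybb2, the most abundant beta crystallin of WT replicate 4, was at 6.23, 3.93, 6.12, 17657 and 6.57 CPM in WT and at 4.41, 0.685, 3954, 13.6, 7.45 and 672 CPM in KO libraries. The same 3 libraries were highest and in the same order, and KO replicate 2 was again the lowest.

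Cryba1, which encodes both the beta A3 and the beta A1 protein, was at 4.0, 2.29, 4.09, 12378 and 3.76 CPM in WT and at 3.86, 0.521, 4224, 9.94, 5.61 and 305 CPM in KO libraries. Crygs was at 1.88, 1.51, 1.98, 7302 and 2.32 CPM in WT and at 1.80, 0.329, 1753, 5.94, 3.53 and 161 CPM in KO libraries. For both genes each genotype contained libraries at the low and at the high level. The other 4 beta crystallins had the same order of the 3 libraries. Their ranges in the other 8 libraries were 0.0822 to 2.50 CPM for Cryba2, 0.302 to 3.44 for Cryba4, 0.329 to 3.79 for Crybb1 and 0.850 to 4.61 for Crybb3, and in WT replicate 4 they were at 2798, 3706, 3815 and 4846 CPM.

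Cryab, which serves as a stress-induced chaperone in many tissues, was at 248, 159, 79.4, 8945 and 119 CPM in WT and at 172, 133, 3466, 106, 75.1 and 686 CPM in KO libraries. WT replicate 4 was 36.1 times, KO replicate 3 was 14 times and KO replicate 6 was 2.77 times the highest of the other 8 libraries. Its spread over those 8 was 3.30-fold, against 5.42-fold for Crybb3 to 30.4-fold for Cryba2 among the other members. KO replicate 2 set the larger spreads: without it Cryab was again at 3.30-fold and the others at 2.30-fold (Crybb3) to 4.38-fold (Cryaa). The gene overlaps Hspb2, another small heat shock protein gene on the opposite strand, by 1030 bases, and since the counting is not stated to use strand, reads of the shared stretch cannot be told apart. Hspb2 was at 8.01, 6.24 and 3.22 CPM in the 3 libraries, within its range of 2.11 to 11.5 in the other 8.

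**Figure D1:**
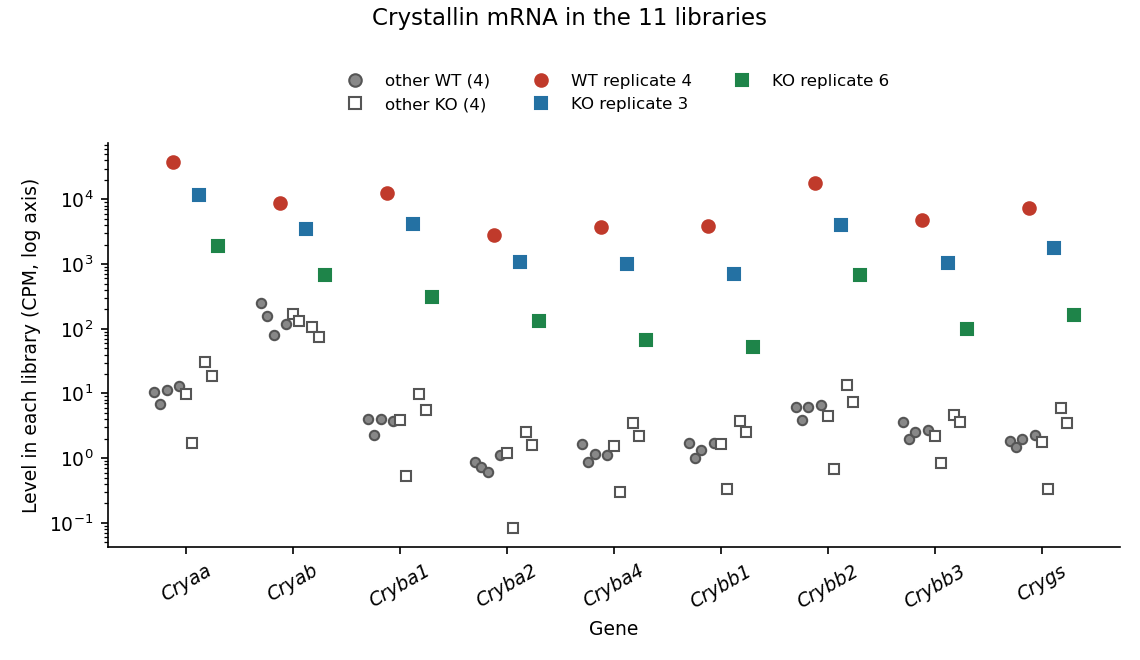
Level of each of the 9 crystallins in the 11 libraries, in CPM on a logarithmic axis, with circles for WT and squares for KO libraries. WT replicate 4, KO replicate 3 and KO replicate 6 lie above the other 8 libraries for every gene, in that order, and the gap is smallest for Cryab, where KO replicate 6 is 2.77 times the highest of the 8.

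Called by a level over 4 times the highest of the other 8 libraries (that highest value taken as at least 0.1 CPM), 9 of the 9 crystallins were high in WT replicate 4, beside 0.222% of the 15767 genes tested. In KO replicate 3 the count was 9 of 9, beside 0.127%, and in KO replicate 6 it was 8 of 9, beside 0.0571%, with Cryab as the exception. The members were chosen for their level in WT replicate 4, so nothing is read from the first of these counts. The height of the 2 KO libraries is likewise given as a description, because it was found in the same values.

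Per length, Cryab ranked highest of the 9 in each of the 8 libraries, with 69.6 to 219 FPKM, which was 51.6% to 95.3% of their summed FPKM. Cryaa was the next in each of the 8, at 1.54 to 28.1 FPKM. Crybb2 followed in 7 of them, with KO replicate 2 as the exception, and its range of 0.98 to 19.2 FPKM overlapped that of Cryaa and that of Cryba1 (0.73 to 14.3 FPKM). Crygs, Crybb3, Cryba4, Crybb1 and Cryba2 filled the lower ranks at no more than 9.45 FPKM, with overlapping ranges.

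In the 3 high libraries the order was another. Cryaa ranked highest in all 3, with 29226 FPKM in WT replicate 4, 10350 in KO replicate 3 and 1718 in KO replicate 6. Cryab was the fifth in WT replicate 4 with 6.92% of the summed FPKM, the fourth in KO replicate 3 with 9.46% and the third in KO replicate 6 with 14%. Crybb2 was at 20653 FPKM in WT replicate 4, above Cryba1 at 14744, whereas in KO replicate 3 Cryba1 was at 5785 FPKM, above Crybb2 at 5160.

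The 3 libraries did not differ in height alone. Relative to WT replicate 4, the 9 crystallins of KO replicate 3 were at a median of 27.5%, from 18.1% for Crybb1 to 38.7% for Cryab, and those of KO replicate 6 at a median of 2.46%, from 1.35% for Crybb1 to 7.66% for Cryab. The gamma crystallins, which the lens makes mainly in maturing fibre cells, were at a median of 2.50% in KO replicate 3 and 0.0451% in KO replicate 6. Cryga was at 2403 CPM in WT replicate 4, 2.88 in KO replicate 3 and 0.660 in KO replicate 6, beside 0 to 2.63 CPM in the other 8 libraries. Crygb was at 13954, 350 and 8.07 CPM, beside 0.137 to 13.6. Crygn, a divergent gamma crystallin, did not share this and was at 61.6, 41.1 and 5.12 CPM, so that KO replicate 3 was at 66.8% of WT replicate 4. Cryga to Crygf are similar in sequence, and how reads that match several of them were split is uncertain, whereas their sum is less affected.

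Summed, Cryga to Crygf took 36.2% of the counts of 14 lens crystallins (the 9 without Cryab, with Cryga to Crygf) in WT replicate 4 (36.1 to 36.3%, Wilson), 4.81% in KO replicate 3 (4.75 to 4.86%) and 0.808% in KO replicate 6 (0.751 to 0.869%). The share of Cryaa was 26.9%, 43.9% and 55.5% in the same 3 libraries. In the other 8 the gamma share was 10.6% to 38.0% and the Cryaa share 22.9% to 32.1%. The lowest gamma share among the 8, that of KO replicate 2, rests on 197 counts and has an interval of 7.08 to 15.7%. Each of the 8 had a gamma share above those of KO replicates 3 and 6.

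**Figure D2:**
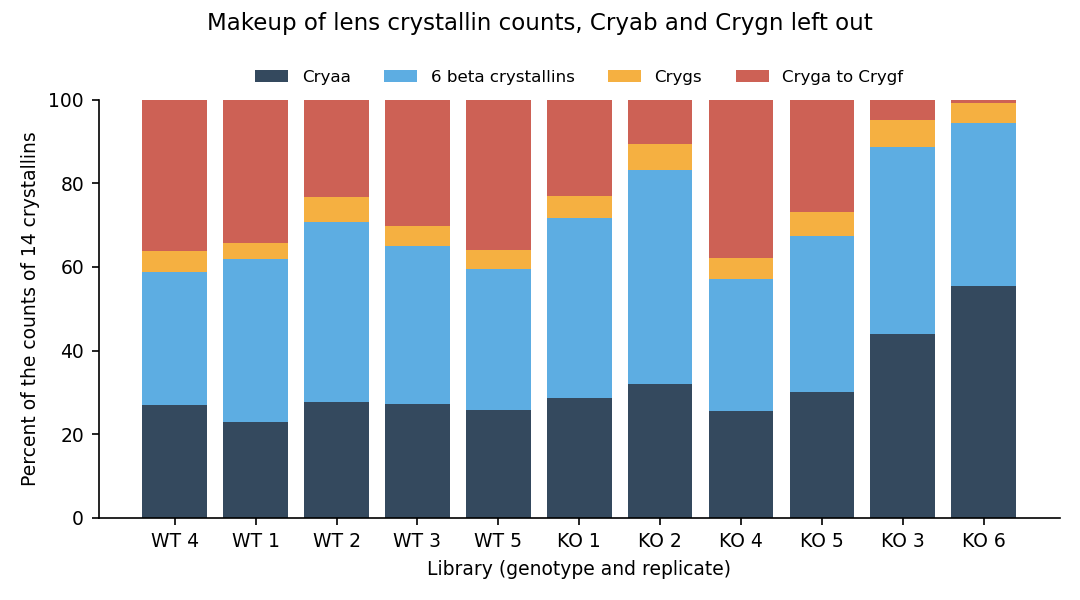
Shares of Cryaa, the 6 beta crystallins, Crygs and Cryga to Crygf in the summed counts of these 14 genes, in percent, for each library. The gamma part is 36.2% in WT replicate 4 and 10.6% to 38.0% in the 8 libraries with low levels, and it is 4.81% in KO replicate 3 and 0.808% in KO replicate 6.

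The makeup over the 14 genes was compared as the median absolute log2 difference of a gene's share between libraries. Of the 3 high libraries, WT replicate 4 was the closest for 7 of the 8 low libraries. KO replicate 4 was 0.11 from WT replicate 4, 0.93 from KO replicate 3 and 1.09 from KO replicate 6. KO replicate 2 was closer to KO replicate 3 (0.82) than to WT replicate 4 (1.15). WT replicate 4 and KO replicate 3 were 0.94 apart.

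Markers of lens cells followed the crystallins into these 3 libraries. Summed over 11 lens fibre markers the level was 6184 CPM in WT replicate 4, 954 in KO replicate 3 and 129 in KO replicate 6, beside 6.36 to 11.5 in the other 8. Among the 11, Mip, the water channel of fibre cells, was at 1252, 572 and 66.8 CPM, beside 0 to 0.538. Grifin, a galectin-related protein of the lens, was at 244, 74.2 and 9.78 CPM, beside 0 to 0.301. Foxe3, a transcription factor of the lens epithelium, had 131, 125 and 98 counts in the 3 libraries and 0 in each of the other 8, which allows up to 0.0822 to 0.150 CPM by the limit of 3 counts per library.

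Genes of late fibre maturation were different. Dnase2b, the nuclease that removes fibre cell DNA, was at 25.4 CPM in WT replicate 4, and at 0.0861 in KO replicate 3 and 0.0776 in KO replicate 6, against a highest value of 0.0861 in the other 8. Birc7 was at 84.0, 0.603 and 0.388 CPM, beside 0 to 0.372. Lgsn, an abundant fibre protein, was at 1852, 18.7 and 2.87 CPM, beside 0.274 to 1.85. For Foxe3, by contrast, KO replicate 3 was at 82.1% and KO replicate 6 at 58.0% of WT replicate 4. The part of lens cells of either kind in the crystallin levels was not tested. In bulk RNA, fewer cells of a type and less RNA per cell cannot be told apart.

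**Figure D3:**
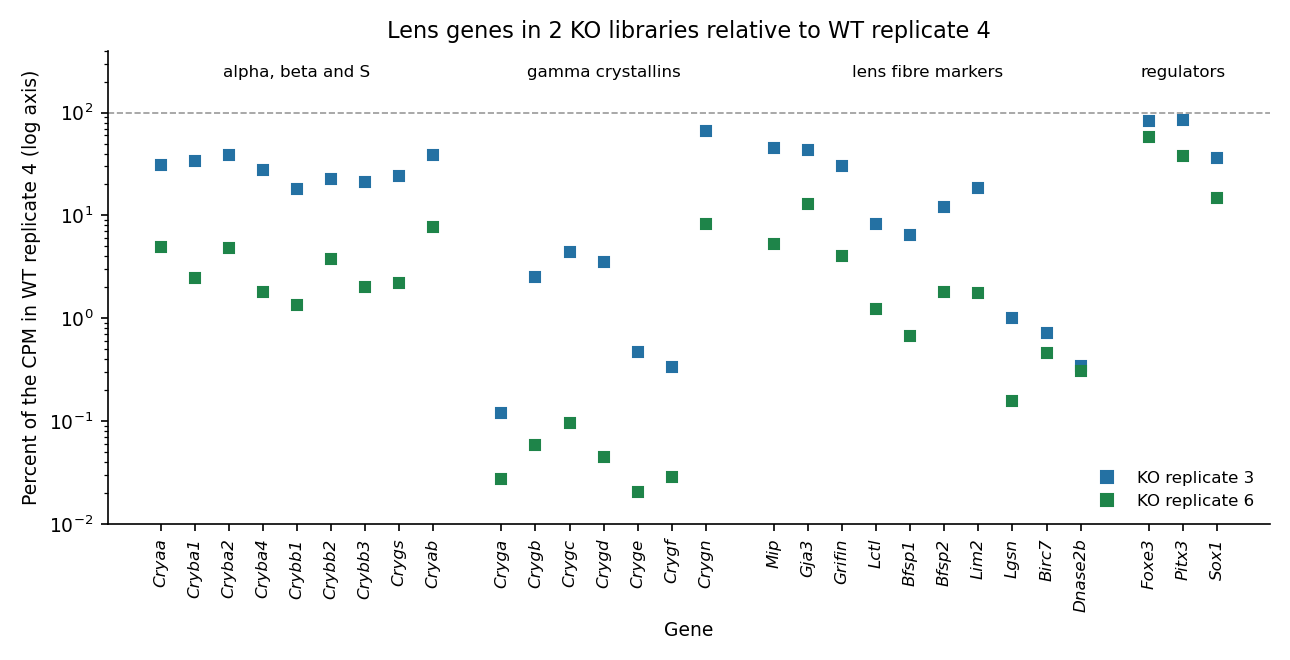
Level in KO replicates 3 and 6 as a percentage of the CPM in WT replicate 4, on a logarithmic axis, for the 9 crystallins, 7 gamma crystallins, 10 of the 11 lens fibre markers and 3 transcription factors. In KO replicate 3 the 9 crystallins lie between 18.1% and 38.7%, Cryga to Crygf at 4.38% or less, Dnase2b at 0.339% and Foxe3 at 82.1%.

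Among 12 transcription factors that regulate crystallin genes, 4 were over 4 times the highest of the other 8 libraries in WT replicate 4. In KO replicate 3 the count was 3 and in KO replicate 6 it was 2. The shares of the 15767 genes tested were 0.222%, 0.127% and 0.0571%. Foxe3, Pitx3 and Sox1 did not pass the filter and lie outside that set. Besides Foxe3, Pitx3 passed the limit in all 3 libraries, at 6.41, 5.38 and 2.44 CPM against at most 0.401 in the 8. Sox1 passed it in WT replicate 4 and KO replicate 3, at 14.7, 5.34 and 2.17 CPM in the 3 against at most 0.646. Maf was at 87.3, 53.0 and 31.8 CPM, against a range of 18.9 to 30.7 in the 8. Hsf4, which drives fibre expression of heat shock proteins, was at 36.6, 9.34 and 7.80 CPM, against 4.56 to 7.44, and passed the limit in WT replicate 4. Pax6 and Prox1, which the retina also makes, were at 359 and 204 CPM in WT replicate 4, against 342 to 419 and 128 to 196 in the 8.

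Most other small heat shock proteins did not stand out in the 3 libraries. Of the 7 measured, Hspb1 alone passed the 4-fold limit, in WT replicate 4 at 544 CPM against a highest value of 108 in the 8, and it was at 80.8 and 33.8 CPM in KO replicates 3 and 6. None of 9 stress-induced chaperones or 7 non-lens beta-gamma and enzyme crystallin genes, such as Crybg1 and Crym, passed this limit in any of the 3 libraries. Nor did any of 9 rod, 6 RPE, 8 glial, 12 striated muscle, 8 adipocyte or 8 corneal markers. The summed rod markers were at 34886, 41476 and 46889 CPM in the 3, against 29436 to 46181 in the 8, and the RPE markers at 1299, 1575 and 1699 against 1160 to 1715, so that rod and RPE transcripts were present in all libraries. Choroid, sclera and ciliary body were not checked. Summed corneal markers were at 7649, 7695 and 2596 CPM, against 1260 to 9136 in the 8, although the labels state removal of the cornea. Adipocyte markers were at 158, 13.1 and 12.4 CPM, against 13.5 to 552, and glial markers at 4301, 4230 and 4361, against 3907 to 5452.

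Among the 8 libraries, 8 of the 9 crystallins moved together and Cryab did not. Pearson's r of a gene's log2 CPM with the mean of the other members was 0.969 to 0.992 over these 8 libraries for the 8 genes and -0.23 for Cryab. Over all 11 libraries, where the 3 high ones dominate, it was 0.943 for Cryab. The points share library depth and, at a few counts, sampling noise, and r is given without a test.

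The study's names for the libraries fall into a series with a mouse number (WT replicates 1 and 2, KO replicates 1 to 3) and a series with an age (WT replicates 3 to 5, KO replicates 4 to 6). What else separates the series is not known. Of the 8 libraries, 4 belong to each. Cryab was at 133 to 248 CPM in the mouse-number series and at 75.1 to 119 CPM in the age series, with no overlap, as were 22.6% of all genes tested. Cryaa ran the other way without overlap, at 1.73 to 10.7 CPM in the mouse-number and 11.5 to 30.7 CPM in the age series, as did Crygs, beside 17.1% of all genes tested. The other 6 crystallins overlapped between the series, as Crybb2 did with 0.685 to 6.23 and 6.12 to 13.6 CPM.

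Of the other gene groups in the 8 libraries, 12 of 12 striated muscle markers and 6 of 7 small heat shock proteins were higher in every mouse-number library than in every age library, as Cryab was. Ckm, the muscle creatine kinase, was at 570 to 1154 CPM in the mouse-number and 94.0 to 392 CPM in the age series. Hspb6, a small heat shock protein abundant in muscle, was at 134 to 271 and 77.8 to 113 CPM. The same held for 5 of 8 corneal markers, 4 of 9 chaperones and 4 of 7 non-lens beta-gamma and enzyme crystallin genes. It also held for 3 of 8 adipocyte markers, 0 of 8 glial markers and 22.6% of all genes tested. The part of muscle in the level of Cryab was not tested. These orders cover the 8 libraries only. WT replicate 4, of the age series, was at 575 CPM for Ckm and 164 CPM for Hspb6, within the mouse-number ranges. KO replicate 3, of the mouse-number series, was at 233 and 101 CPM, within the age ranges. KO replicate 6, of the age series, was at 282 and 91.4 CPM, also within the age ranges. Of 9 rod markers, 8 were higher in every age library, as Cryaa was, beside 17.1% of all genes tested. That order also held for 3 of 12 crystallin regulators, 2 of 8 glial markers, 1 of 7 gamma crystallins, 1 of 11 lens fibre markers and 0 of 6 RPE markers.

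**Figure D4:**
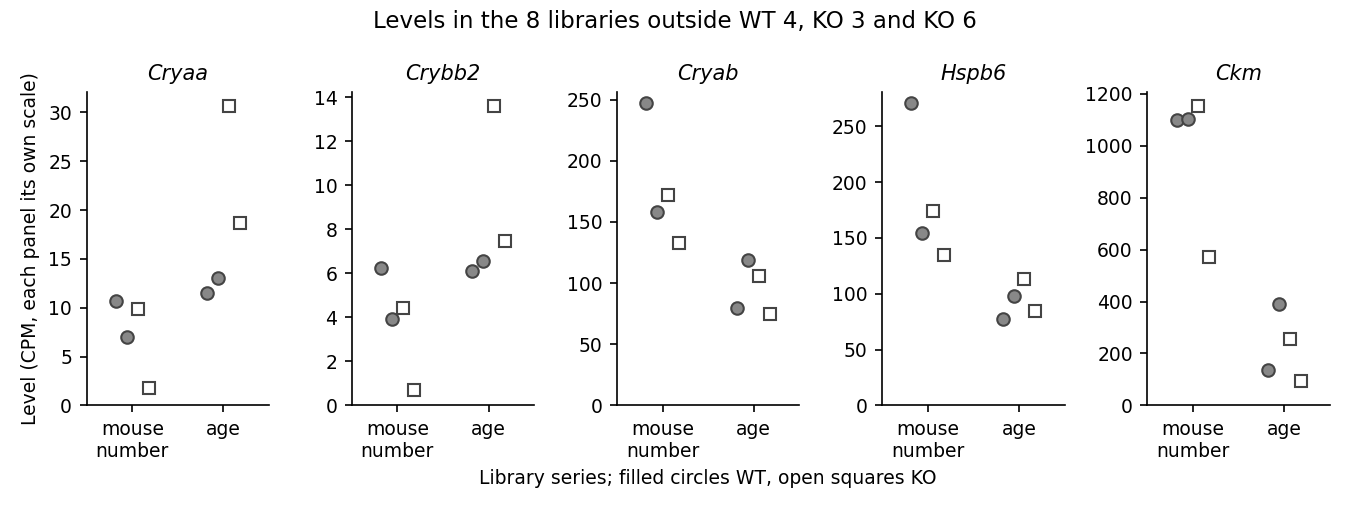
Level of 5 genes in the 8 libraries outside WT replicate 4, KO replicate 3 and KO replicate 6, in CPM with a separate scale for each gene, by library series (filled circles WT, open squares KO). Cryab (133 to 248 against 75.1 to 119 CPM), Hspb6 and Ckm are higher in the mouse-number series, Cryaa is higher in the age series, and Crybb2 overlaps.

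The genotype comparison asks whether loss of miR-211 changed the transcript levels. All KO animals were male and the WT animals were of both sexes, so the fit by genotype alone cannot fully separate genotype from sex. None of the 9 crystallins passed an adjusted p of 0.1 by edgeR's likelihood-ratio test with Benjamini-Hochberg adjustment over 15767 genes (adjusted p = 1.00 for each), beside 0.00634% of all genes tested, and 0 of 9 had an unadjusted p under 0.05, beside 2.09%. By edgeR's quasi-likelihood test 0 of 9 had an unadjusted p under 0.05 as well, beside 2.83%. All 9 fold changes of KO over WT were below 0, at a median of -2.03 on the log2 scale against 0.00 over all genes tested. Cryaa was at -1.75 (standard error 1.99), Cryab at -1.31 (1.25) and Crybb1, the lowest, at -2.61 (1.94). The biological coefficient of variation of the 9 was 143% to 226%, against a median of 15.9% over all genes tested. WT and KO libraries overlapped for 9 of 9 crystallins, and 0.184% of all genes tested did not overlap.

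The sign of these fold changes depended on which libraries were included. Without WT replicate 4 all 9 were above 0, from 2.34 (standard error 1.05) for Cryab to 7.89 (2.30) for Cryba2. By edgeR's likelihood-ratio test 9 of 9 then had an unadjusted p under 0.05, and 0 of 9 passed the adjusted threshold (adjusted p = 1.00). Of the 15767 genes tested, 217 were lower and 56 higher at an unadjusted p under 0.05 in that fit. Without KO replicate 3 all 9 were below 0, from -3.03 (1.26) for Cryab to -6.00 (2.24) for Crybb1. Their unadjusted p by the same test ran from 0.00754 for Crybb1 to 0.0586 for Cryaa, and 0 of 9 passed the adjusted threshold. With the 3 high libraries left out, which was decided after the data were seen, the fold changes were small: Cryab was at -0.31 (0.37) and the other 8 ran from 0.07 (0.49) for Crybb3 to 0.69 (0.73) for Cryba2, and 0 of 9 had an unadjusted p under 0.05, beside 1.15%. Within the mouse-number series, where KO replicate 3 is the single high library, the fold changes ran from 2.63 for Cryab to 8.81 for Cryba1. Unadjusted p by the likelihood-ratio test ran there from 0.00871 for Cryaa to 0.0644 for Cryab. Within the age series, where WT replicate 4 and KO replicate 6 are high, the fold changes ran from -3.38 for Cryab to -6.02 for Crybb1. Unadjusted p by that test ran there from 0.0180 for Crybb1 to 0.0932 for Cryaa.

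Two-sided exact permutation tests on log2 CPM gave p = 0.879 to 0.983 over the 462 splits of all libraries, where the smallest possible p is 0.00433. On that scale, which weighs each library's log2 level alike, the mean of KO minus WT had the opposite sign to the fit for 8 of the 9, from 0.03 for Crybb3 to 0.67 for Cryba2, and was -0.22 for Cryab. Without WT replicate 4 the exact p was 0.248 to 0.476 over 210 splits, with a smallest possible value of 0.00952, and without the 3 high libraries it was 0.600 to 1.00 over 70 splits, with a smallest possible value of 0.0286. In those 8 libraries the mean log2 difference was below 0 for Cryaa, Cryab, Cryba1, Crybb2 and Crybb3 and above 0 for the other 4, from -0.39 for Crybb2 to 0.27 for Cryba4, so that the sign of Cryaa, Cryba1, Crybb2 and Crybb3 turned between the fit and the mean. Cryaa, for instance, was at 6.99 to 13.1 CPM in the 4 WT and 1.73 to 30.7 CPM in the 4 KO libraries that remained. KO replicate 2 was the lowest and KO replicate 4 the highest of the 8 for every crystallin except Cryab. These crystallins moved together over the 8 libraries, so they do not count separately, and the share of all genes with this order was not computed. WT and KO overlapped for 9 of 9, whereas 1.47% of all genes tested did not overlap.

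**Figure D5:**
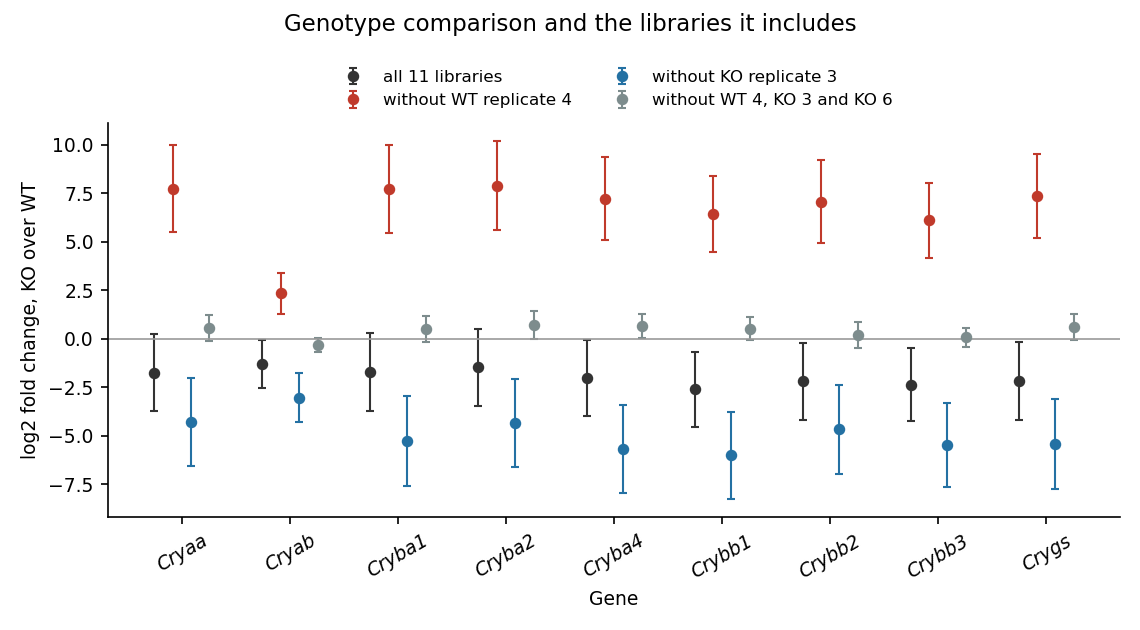
Log2 fold change of KO over WT for each of the 9 crystallins from edgeR's likelihood-ratio fit, with bars of 1 standard error, for all 11 libraries and with libraries left out. All 9 are below 0 with all libraries (-1.31 to -2.61), above 0 without WT replicate 4 (2.34 to 7.89), further below 0 without KO replicate 3, and within 0.69 of 0 when the 3 high libraries are left out.

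In the same comparison over all 11 libraries, 4 gamma crystallins passed the filter and had a median log2 fold change of -5.24. All 4 were below 0. By edgeR's likelihood-ratio test 4 of 4 had an unadjusted p under 0.05, beside 2.09% of all genes tested, and 0 passed the adjusted threshold. Of the lens fibre markers 3 were tested, Bfsp1, Bfsp2 and Lgsn, at a median of -3.99. By the same test 3 of 3 had an unadjusted p under 0.05, and 0 were called. Lgsn had a median of 0.764 CPM in the other 8 libraries and passed the filter only through the 3 high ones. Nothing is therefore read from its p. Without WT replicate 4 the median fold changes of the 2 lists were 4.33 and 2.07. Without the 3 high libraries they were 0.36 and -0.14. In the fit without WT replicate 4, 3 of the 4 gamma crystallins and 3 of 3 lens fibre markers had an unadjusted p under 0.05 by that test. All of these were now higher in KO, beside 56 of the 15767 genes tested. With the 3 high libraries left out, 0 of either list did. Medians of the other lists over all libraries were 0.02 for 7 crystallin regulators, -0.48 for 6 small heat shock proteins and -0.13 for 9 chaperones. They were -0.05 for 7 non-lens beta-gamma and enzyme crystallin genes, -0.59 for 12 striated muscle markers and -2.01 for 7 adipocyte markers. Medians were 0.24 for 8 corneal, -0.02 for 8 glial, 0.11 for 9 rod and -0.05 for 5 RPE markers. No gene of these lists passed the adjusted threshold.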

How the data were processed

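The authors aligned 100-nt paired reads (TruSeq RNA) and deposited, for each gene of Gencode release M4, the expected count from RSEM 1.2.19, an unscaled estimate of read pairs that can be a fraction, and the FPKM, scaled by effective gene length and library. The build was taken as GRCm38, on which release M21, the source of symbols (95.4% matched) and positions, also lies. Expected counts were rounded. Genes that reached 1 CPM in 5 or more libraries were fitted by genotype alone with edgeR 4.0.16 in R 4.3.3 at an adjusted p of 0.1. The filter, a generalized linear model in edgeR and this threshold are those of the study's methods, whereas TMM and the likelihood-ratio test (glmLRT) were chosen here. Standard errors are the log2 fold change divided by the square root of the likelihood ratio. Log2 CPM has a prior count of 2. FPKM entered no test. Values of 1 lens fibre marker are not reported here. At the lowest total 1 CPM is about 20.3 read pairs, which limits Cryba2 in particular.

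The members and lists were chosen with earlier results of these data known. Named genes are the 9 members, the marker lists, and the 10 genes most like the members' mean by Pearson's r. A few further genes in the closing section were picked after their values were seen, as said there. Library series were read from the study's column names, matched by proportional counts (coefficient of variation at most 0.201%, next best at least 24.5%). Alternatives were the quasi-likelihood test, DESeq2 1.42.0, other scalings and filters, a replicate block, the series as covariate and each library left out. Leaving out the 3 high libraries together, fits within series, comparison with the median of the other 8, and fold ranges without KO replicate 2 were chosen after seeing the data.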

Additional observations from a re-analysis of the deposited data

Results flagged for a closer look

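WT replicate 4 was far from the other WT libraries in log2 CPM for each of the 9 crystallins. Its gap to the nearest WT library, divided by the range of the 5, was 0.928 for Cryaa, 0.759 for Cryab, 0.934 for Cryba1, 0.933 for Cryba2, 0.928 for Cryba4, 0.939 for Crybb1, 0.940 for Crybb2, 0.925 for Crybb3 and 0.952 for Crygs. Each value is past Dixon's limit for 5 samples. None of the 9 genes was past the limit in the KO group, but nothing is read from that outcome. KO replicates 3 and 6 are both high, so the gap of KO replicate 3 is measured to KO replicate 6. For Cryaa that ratio was 0.208. The members were chosen for their level in WT replicate 4, so that the outcome in WT was fixed by the choice. The values are given as a description and not as a test.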

How the results depend on the processing

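The count of the 9 crystallins called was 0 under every alternative run with edgeR. DESeq2 gave no p-value for any of the 9, and its fold changes kept their sign. A filter of at least 10 counts in every library removed Cryba2, so that 8 of the 9 were tested under it. The count of all genes called, 1 in the main fit, was 0 by the quasi-likelihood test, 2 by DESeq2, 2 with a filter of at least 1 count in any library, 10 with the library series as covariate, 7 within the mouse-number series, 38 within the age series and 1 to 11 with each library left out, the 11 without KO replicate 1. With the replicate number as a block, which drops KO replicate 6, the count was 10, 0 of the 9 crystallins were called, and their log2 fold changes were -0.18 to -0.90. The labels do not say that the numbers pair the samples. Same-numbered WT and KO libraries had r = -0.33 to 0.63 (mean 0.22) over 5 pairs, against a mean of -0.04 for other pairs. Same-numbered pairs other than replicate 3 lie within a series. Pairs of other numbers within a series had r from -0.32 (WT replicate 4 and KO replicate 5) to 0.73 (WT replicate 3 and KO replicate 5). Number and series are thus mixed, and these r do not settle whether the numbers pair the samples.

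With each library left out in turn, the KO over WT log2 values spanned -4.29 to 7.73 for Cryaa, -3.03 to 2.34 for Cryab, -5.25 to 7.72 for Cryba1, -4.33 to 7.89 for Cryba2, -5.65 to 7.22 for Cryba4, -6.00 to 6.41 for Crybb1, -4.66 to 7.06 for Crybb2, -5.47 to 6.10 for Crybb3 and -5.40 to 7.36 for Crygs. The values above 0 are those without WT replicate 4. Without the 3 high libraries the sign turned for Cryaa (0.54), Cryba1 (0.50), Cryba2 (0.69), Cryba4 (0.66), Crybb1 (0.52), Crybb2 (0.21), Crybb3 (0.068) and Crygs (0.60). By the mean difference of log2 CPM in those 8 libraries, Cryaa (-0.04), Cryba1 (-0.05), Crybb2 (-0.39) and Crybb3 (-0.15) were below 0. Within the mouse-number series the fitted sign turned for all 9, to 8.79, 2.63, 8.81, 8.78, 8.09, 7.38, 8.02, 6.92 and 8.43 in the order of the ranges above. The share of counts moved with the deposited FPKM to 17.0% in WT replicate 4 and 6.57% in KO replicate 3. That share is of library size, so the alternative without TMM gave it no second value. Levels at a few counts, as for Cryba2 with 3 in KO replicate 2, are known with low precision.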

Other observations

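Over the whole table, 24 genes exceeded 4 times the highest of the other 8 libraries in each of WT replicate 4, KO replicate 3 and KO replicate 6. Of these, 9 were crystallins, with Crygn among them and without Cryab, and 15 were not. Besides the lens markers named above they included Wnt7a, a secreted signalling protein (10.2, 6.20 and 1.32 CPM, highest of the 8 at 0.0708), Rspo1, an enhancer of Wnt signalling (7.26, 6.50 and 3.03 CPM, 0.708), Srd5a2, a steroid reductase (8.16, 7.02 and 2.13 CPM, 0.0818), B3gnt5, a glycolipid enzyme (34.3, 15.2 and 4.97 CPM, 1.08), and R3hdml (13.1, 13.7 and 6.91 CPM, 1.37), the single gene outside the crystallins that was also tested. These genes were named after their values were seen. For R3hdml the level in KO replicate 3 was 104% of that in WT replicate 4. It was at most 38.7% for the 9 members described above, and 66.8% for Crygn.

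In WT replicate 4, 37 genes were over 4 times the highest of all other 10 libraries, the other 2 high ones included, among them 10 of the 16 alpha, beta and gamma crystallins. Crybb1, Crybb2, Crybb3 and Crygs are in both sets. Of the genes outside the crystallins, also named after their values were seen, Fabp5, a fatty acid binding protein, was at 2075 CPM (highest elsewhere 297), Lenep, a lens epithelial protein, at 759 (23.2), and Hmox1, the stress-induced heme oxygenase, at 230 CPM (13.9). Hmox1 was at 7.62 CPM in KO replicate 3 and 5.86 CPM in KO replicate 6.

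The genes outside the crystallins whose log2 CPM was most like the members' mean over 11 libraries were Lix1 (r = 0.986), R3hdml (0.972), ENSMUSG00000090828 (0.971), Adamts18 (0.970), Col4a4 (0.968), Arsi (0.966), Npl (0.965), Slc7a2 (0.956), Col4a2 (0.954) and Bfsp1 (0.949). Col4a2 and Col4a4 encode chains of basement membrane collagen, and Col4a2 was at 541, 395 and 190 CPM in the 3 high libraries against 95.6 to 149 in the other 8. Without WT replicate 4 the 10 were Lix1 (0.979), R3hdml (0.971), Bfsp2 (0.956), Col4a4 (0.951), Arsi (0.951), ENSMUSG00000090828 (0.95), Npl (0.949), Bfsp1 (0.949), Adamts18 (0.946) and Lgsn (0.945). These r describe libraries in separate clusters and carry no test. Over the 8 low libraries alone the leading gene was Trmt1 (0.938), and none of the 10 leading genes was in a lens list.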
